A study of Drosophila melanogaster with 12 samples.

Results

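Wing imaginal discs of larvae carrying the *ash2* allele I1 (ash2-I1) were compared with a reference pool on 4 of the 12 dual-channel arrays of the series, namely every array labelled as ash2-I1 wing discs. The ash2-I1 larvae were w1118 in background with a wild-type second chromosome. Their chromosomes X, Y and 2 had been replaced by those of the isogenic DrosDel line. Chromosome 3, which carries *ash2*, had not, and chromosome 4 is not named among those replaced. They were picked as Tb+ (free of the balancer) and wandering, with guts still blue from dyed food, which the methods place early in the third instar. The other mutants, used here only to show where ash2-I1 differs, were ash2-112411 and ash1-22 (4 arrays each). Both were in the same w1118 background with chromosomes X, Y and 2 replaced likewise, and the ash1-22 larvae were ash1-22 over ash1-22F2A. The reference was RNA pooled from discs of the w1118 DrosDel line with no *ash* mutation. This pool was hybridized to all arrays and is a single control sample, whose own variation the errors leave out. As the study describes them, discs of ash2-I1 larvae are much reduced in size and the larvae die around pupariation, so a ratio in whole discs also carries any change in which cells the disc holds. In such bulk samples fewer cells of a type and less RNA per cell cannot be told apart.

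Ash2 is a trithorax group protein and a core subunit of the complexes that methylate histones at active promoters. Trithorax group genes keep patterning genes on through development, and the wing disc is the larval epithelium that forms the adult wing and notum. It grows and is patterned by a small set of selector genes and signals, and a damaged disc turns on stress kinases and secreted cytokines and delays pupariation.

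RNA was extracted 2 times per allele, and both extractions were labelled in either dye orientation. Arrays 1 and 2 of ash2-I1 held extraction 1, with the mutant in Cy3 and then in Cy5, and arrays 3 and 4 held extraction 2, with the mutant in Cy5 and then in Cy3. Values are log2 ratios of mutant over reference, turned to that direction on arrays with the mutant in Cy3, so 1 means 2.0-fold higher in the mutant and 0 means no difference. The study's methods treat the extractions as biological replicates without saying which larvae or cultures they came from. The p-values therefore measure only the spread between these samples, which may be technical. The ash2-I1 arrays had 7542 to 8007 spots with a value, and 6890 of 12058 genes with a probe were tested, 4190 of them on all 4 arrays, 2075 on 3 and 625 on 2. After turning, arrays 1 and 2 correlated across spots at 0.707 and arrays 3 and 4 at 0.663, whereas arrays with the same dye orientation correlated at 0.784 and 0.916. Array 4 had a narrower upper tail (the ratio exceeded by the top 1% of spots was 0.94, and 1.47 to 2.06 on the other 3), and of 230 genes called higher and measured on all 4 arrays it gave the lowest value for 150.

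*ash2* itself was lower on every ash2-I1 array, with log2 ratios of −2.21, −2.002, −1.60 and −1.21 on arrays 1 to 4. The mean was −1.75 ± 0.16 (moderated SE of limma, n = 2 extractions), 3.37-fold lower than in the pool (limma, adjusted p = 2.15e-04). All errors after ± are of this kind. Where both dye orientations of an extraction were measured, they were averaged before the fit, so their disagreement is not in these errors or p-values. *Tom7*, for example, had 0.31, 1.42, 1.29 and 0.53 on arrays 1 to 4, and a mean of 0.89 ± 0.07. The errors pool the spread between extractions over the alleles fitted together, so they are not the spread of the ash2-I1 extractions alone. Those 2 extractions were at −2.10 and −1.40 for *ash2*. *ash1* had no named probe and was not analysed here. The nearest tested gene on either side of *ash2* on chromosome arm 3R was lower as well. *puf*, which encodes a ubiquitin protease, had log2 ratios of −1.97, −1.89, −1.28 and −0.46 on arrays 1 to 4, a mean of −1.40 ± 0.21 (adjusted p = 0.0018). *CG31125*, which lies on the other side, was measured on arrays 1 and 3 only, at −1.60 and −1.10 (mean −1.35 ± 0.12, adjusted p = 2.11e-04). *puf* was lower in ash2-I1 than in ash2-112411, where it was at −0.08 ± 0.21 (difference −1.32 ± 0.29, adjusted p = 0.015). *CG31125* was at −1.61 ± 0.12 in ash2-112411, and the difference of 0.26 ± 0.17 did not pass the test (adjusted p = 0.26). In ash1-22 none of *puf*, *ash2* and *CG31125* was called (0.00, 0.26 and −0.23). Of the 10 tested genes on either side of *ash2*, *CG13623* (0.74 ± 0.10) and *Esyt2* (0.61 ± 0.08) were called higher, and *tok* (−1.55 ± 0.08), a tolloid-type protease gene, was called lower. Probe positions were not analysed here, so RNAs of genes that overlap could not be told apart. The *ash2* neighbourhood was examined after its values had been seen.

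**Figure D1:**
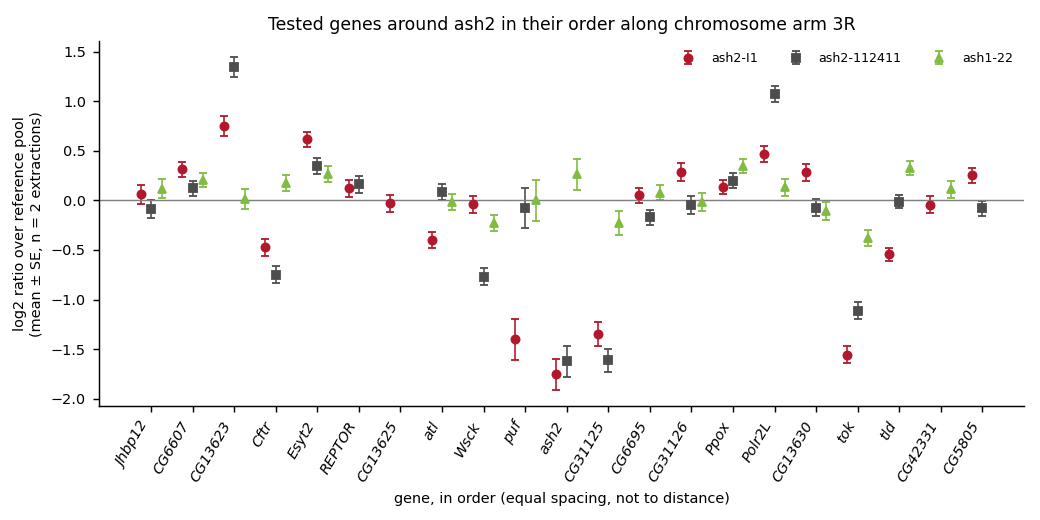
Log2 ratios over the reference pool (y axis, mean of 2 extractions ± moderated SE of limma) of *ash2* and the 10 tested genes on either side of it, in their order along chromosome arm 3R (x axis, equal spacing), in ash2-I1 (circles), in ash2-112411 (squares) and for ash1-22 (triangles). *ash2* and *CG31125* were low in both *ash2* alleles, whereas *puf* was at −1.40 in ash2-I1, against −0.08 in ash2-112411 and 0.00 for ash1-22.

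A gene was called when the adjusted p of limma was under 0.05 and the change was over 1.5-fold (0.58 on the log2 scale). By this rule 374 genes were higher in ash2-I1 discs (5.43% of genes tested) and 459 were lower (6.66%), 12.1% in all. The median ratio of all genes tested was 0.02. Where a call or count is given without an extraction, a single ash2-I1 extraction was left and the spread came from the other alleles only. Such a call holds no replication of ash2-I1. Of the 833 called genes, 807 had the same sign on every array that measured them. Past 2.0-fold there were 149 higher (2.16%) and 143 lower (2.08%), and without a fold threshold 2596 genes (37.7%) had an adjusted p under 0.05. By chromosome arm, the share called higher was 3.63% on X, 5.91% on 2L, 5.39% on 2R, 5.30% on 3L and 6.63% on 3R, and the share called lower was 5.58%, 7.16%, 5.83%, 8.22% and 6.81% in the same order. Chromosome 4 held 2 higher (6.67%) and 5 lower (16.7%) genes among only 30 tested. Only X, Y and 2 are named as exchanged for those of the DrosDel line, not chromosomes 3 and 4, and the part of background in these shares was not tested.

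The largest rises on all 4 arrays included genes of iron transport, detoxification and hormone binding. *Tsf1*, the gene of the iron carrier transferrin, had log2 ratios of 3.97, 4.66, 4.19 and 3.22 on arrays 1 to 4 (16.1-fold, mean 4.01 ± 0.15). *CG32625* had 3.90, 4.31, 3.94 and 3.03 (13.9-fold, mean 3.79 ± 0.18). *AOX1*, an aldehyde oxidase gene, had 3.23, 4.23, 3.27 and 2.17 (9.36-fold, mean 3.23 ± 0.21). Array 2 was the highest and array 4 the lowest for all 3. *JhI-26*, a gene induced by juvenile hormone, had 2.58, 4.21, 3.41 and 1.64 (7.76-fold, mean 2.96 ± 0.20), and *Jhbp7*, of a juvenile hormone binding protein family, had 2.71, 4.10, 3.32 and 1.53 (7.54-fold, mean 2.91 ± 0.27). *Ugt302K1*, a UDP-glycosyltransferase gene, had 2.83, 3.19, 2.70 and 1.83 (mean 2.64 ± 0.16). The glutathione S-transferase genes *GstE6* and *GstD9* had means of 3.10 ± 0.12 and 2.57 ± 0.12. The 12 largest rises were completed by *CG2909* (2.53 ± 0.08), *CG15279* (2.34 ± 0.31), *Nt5b* (2.32 ± 0.13) and *CG4511* (2.21 ± 0.20). The lowest value of any of the 4 arrays for these 12 genes was 0.97 (*CG15279* on array 4).

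The largest falls included a cuticle gene, genes of protein folding and secretion, and enzymes of small-molecule synthesis. *Cpr65Ec*, a cuticle protein gene, had log2 ratios of −3.13, −3.55, −2.60 and −3.01 on arrays 1 to 4 (8.40-fold lower, mean −3.07 ± 0.12). *pst*, a gene of antiviral defence, had −2.44, −2.81, −2.39 and −2.83 (mean −2.62 ± 0.07), and the smallest SE of the 24 genes. *pst* was also low in the other mutants, at −2.42 in the other *ash2* allele and −2.28 in the *ash1* mutant. Neither difference passed (limma, adjusted p = 0.18 and 0.053). *pst* lies on 3L, and the part of background in its fall was not tested. *wbl*, which encodes a disulfide isomerase-related protein of the endoplasmic reticulum, had −3.50, −2.70, −1.76 and −2.28 (mean −2.56 ± 0.21). *Hsp27*, a small heat shock protein gene, had −2.48, −3.14, −2.19 and −2.21 (mean −2.50 ± 0.15). *alphaSnap*, a gene of vesicle fusion, had −2.03, −2.81, −2.27 and −1.82 (mean −2.23 ± 0.11). *alphaSnap* was at −2.07 in the other *ash2* allele and at 0.02 in the *ash1* mutant. *CG11899*, the predicted phosphoserine aminotransferase gene of serine synthesis, had −2.34, −3.28, −1.86 and −1.29 (mean −2.20 ± 0.24), with extraction 1 lower than extraction 2. *fbp*, the gene of the gluconeogenic fructose bisphosphatase, averaged −1.86 ± 0.11, *GNBP3*, which encodes a sensor of fungal glucans, −1.85 ± 0.13, and *Fkbp14*, a prolyl isomerase gene of the endoplasmic reticulum, −1.80 ± 0.08. *CG4914*, a predicted serine protease gene (−2.53 ± 0.19), *Cpr67Fa2*, a further cuticle gene (−1.80 ± 0.16), and *Argk1*, the arginine kinase gene (−1.77 ± 0.16), completed the 12. The adjusted p of these 24 genes lay between 5.91e-06 and 0.0018 (limma). Of the 12 falls, *Cpr65Ec*, *wbl*, *Hsp27*, *fbp*, *Fkbp14*, *CG4914* and *Argk1* passed as lower in ash2-I1 than in both other alleles.

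**Figure D2:**
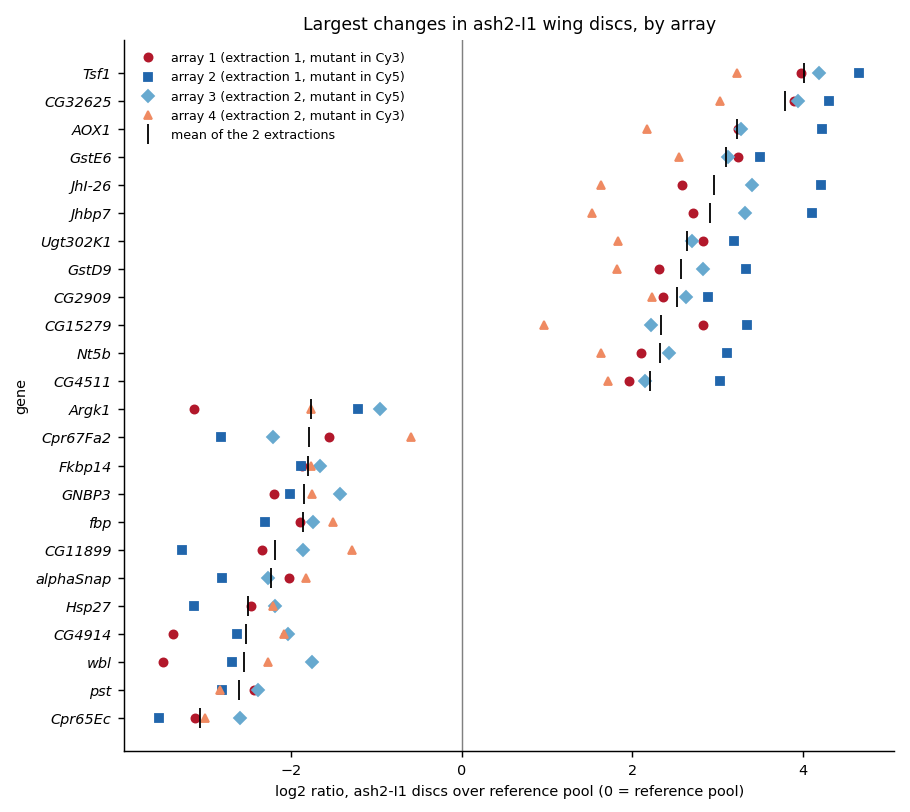
Log2 ratios of ash2-I1 discs over the reference pool (x axis) on each of the 4 arrays for the 12 genes that rose and the 12 that fell furthest among called genes measured on all 4 arrays. Vertical ticks mark the mean of the 2 extractions, and every point lies on the side of 0 of its mean, with array 4 (triangles) nearest 0 for each of the 12 rises.

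Genes that select and pattern the wing disc were mostly lower. Of 24 tested, 13 fell and 1 rose, against 6.66% and 5.43% of all genes, 21 lay below 0, and the median log2 ratio was −0.74. The T-box genes *Doc2*, *Doc3* and *Doc1*, which act in the pleura and hinge, lie together on 3L and formed with *Argk1* a run of 4 tested genes that were all called lower, in a stretch of 7 annotated genes. *Doc2* had log2 ratios of −2.47, −1.81, −1.05 and −1.55 on arrays 1 to 4 (mean −1.72 ± 0.17, adjusted p = 3.49e-04), with *Doc3* at −1.23 ± 0.12 and *Doc1* at −1.12 ± 0.17. The homeobox gene *Optix*, used in vein spacing, had −1.37, −1.84, −1.52 and −0.49 (mean −1.31 ± 0.14). *vg*, the selector gene of the wing, had −0.92, −1.23, −1.08 and −1.17 (mean −1.10 ± 0.06). The posterior selector *en* (−1.13 ± 0.09) and its neighbour *inv* (−1.13 ± 0.10), the dorsal selector *ap* (−0.90 ± 0.10), *dve* (−1.18 ± 0.09), *Dr* (−0.87 ± 0.10), *zfh2* (−0.82 ± 0.08), *ci* (−0.77 ± 0.09) and *ara* (−0.71 ± 0.09) fell too. The pouch gene *nub* (−0.22 ± 0.11) was not called. The notum gene *mirr* was the 1 that rose (0.99 ± 0.14), and without extraction 2 there were 2. As markers of the labelled tissue, 8 of the 9 wing disc markers with a probe were measured, 4 of them called lower, with ratios between −1.13 and −0.22, but a ratio gives no level, so their abundance in the mutant could not be read.

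The signalling lists moved less, where 5.43% of all genes were higher and 6.66% lower. Of Hedgehog pathway genes 3 of 9 fell (*ci*, the co-receptor gene *ihog* at −0.74 ± 0.09 and the secreted factor gene *shf* at −0.62 ± 0.15). Of Dpp and activin pathway genes 3 of 16 fell (*tok*, the ligand gene *mav* at −1.04 ± 0.08 and the receptor gene *tkv* at −0.75 ± 0.13), and of EGF receptor pathway genes 3 of 13 fell (*edl*, an Ets regulator gene, at −2.34 ± 0.20, *cic* at −0.80 ± 0.09 and *S*, the gene of the ligand chaperone Star, at −0.73 ± 0.11). None of these 3 lists had a gene called higher. *edl* had −2.84, −1.92 and −1.75 on arrays 1, 3 and 4. Of planar polarity genes 2 of 9 fell, *in* (−1.53 ± 0.07) and *stan* (−0.88 ± 0.10), of proneural and bristle genes 2 of 10, led by the proneural gene *sc* (−1.504 ± 0.17), and of Notch pathway genes 1 of 7, the inhibitor gene *numb* (−0.64 ± 0.09). The E(spl) and Bearded complexes, clusters of Notch target genes, split, with *BobA* (0.96 ± 0.21) and *E(spl)m4-BFM* (0.74 ± 0.16) higher and *E(spl)malpha-BFM* (−1.01 ± 0.11) and *E(spl)m7-HLH* (−0.78 ± 0.13) lower among 11. No gene was called in the Hippo (11 tested), Wingless (6) and Hox (1) lists. Without extraction 1 neither *BobA* nor *E(spl)m4-BFM* was called, and without extraction 2 the proneural list had 4 falls, the Notch list 0, and the Wingless list 1 rise and 1 fall.

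Of 29 DNA repair genes tested, 7 rose and 0 fell, against 5.43% and 6.66% of all genes, and 22 lay above 0 (median 0.18). *agt*, whose product removes alkyl groups from guanine, had log2 ratios of 1.65, 2.43, 2.18 and 0.95 on arrays 1 to 4 (3.48-fold, mean 1.80 ± 0.12). *Irbp*, which encodes Ku70 of the end-joining complex, had 1.21, 1.54, 1.24 and 0.90 (mean 1.22 ± 0.10, adjusted p = 1.49e-04), and *Ku80*, its partner, had 1.00, 1.62, 1.34 and 0.33 (mean 1.07 ± 0.11). The genes of the break-sensing complex, *rad50* and *mre11*, had 1.12, 1.33, 1.03 and 0.71 (mean 1.05 ± 0.10) and 1.20, 0.96, 0.78 and 0.49 (mean 0.86 ± 0.11), and their partner *nbs*, at 0.49 ± 0.10, was not called. All 4 arrays were above 0 for each of these called genes. The DNA polymerase zeta genes *PolZ2* (0.95 ± 0.08) and *PolZ1* (0.67 ± 0.08) were the others called. Of 34 DNA replication genes 2 rose and 0 fell, and both, *RPA1* (0.91 ± 0.11) and *RPA2* (0.67 ± 0.11), encode the protein that coats single-stranded DNA. The checkpoint kinase genes *mei-41* (0.08 ± 0.07) and *tefu* (−0.17 ± 0.10) were not called. Without extraction 1, 6 repair genes were higher and 1 lower, and without extraction 2, 9 were higher and 0 lower, while 1 replication gene was lower without either.

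Of the repair list, 6 of 28 genes were higher in ash2-I1 than in ash2-112411 and 7 of 26 than in ash1-22, with 0 lower in either, against 7.9% and 6.12% of all genes higher in these contrasts. Other lists stood above ash2-112411 too, with 10 of 28 ribosome biogenesis, 10 of 34 initiation factor and 6 of 27 tRNA synthetase genes higher and 0 lower. On a common scale these numbers were 4, 6 and 1, and that of the repair list was 6. *Ku80* was at 1.07 ± 0.11 in ash2-I1 and at 0.06 in both other alleles, and the differences of 1.02 and 1.01 had adjusted p of 0.0058 and 0.0052. For *rad50*, at 1.05 in ash2-I1 and 0.03 and 0.01 in ash2-112411 and ash1-22, the differences were 1.01 and 1.03 (adjusted p = 0.0037 and 0.0028). *mre11* (differences of 0.99 and 0.93), *Irbp* (0.83 and 1.02) and, of the replication list, *RPA1* (1.22 and 1.05) also passed in both contrasts, whereas *RPA2*, at 0.50 in ash2-112411 and 0.47 in ash1-22, passed in neither (0.17 and 0.20). *agt* differed from ash1-22 (1.03, adjusted p = 0.0070), but not from ash2-112411, where it was at 1.64 (difference 0.16, adjusted p = 0.51). *Parp1* was at 0.58 ± 0.10 in ash2-I1, just under 1.5-fold, and was higher there than in ash2-112411 (by 0.82) and ash1-22 (by 0.74). The members past the first 3 of the repair list were named after their values had been seen.

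Of JNK pathway genes and targets 6 of 16 rose and 1 fell, and of JAK/STAT pathway genes 2 of 4 rose, against 5.43% higher and 6.66% lower of all genes. *upd1*, a secreted ligand of the JAK/STAT receptor, had log2 ratios of 2.56, 3.20 and 1.99 on arrays 1 to 3 and no value on array 4 (5.41-fold, mean 2.44 ± 0.19, adjusted p = 1.21e-04). *chinmo*, a zinc finger gene that both lists held, had 2.54, 2.72 and 1.57 on the same arrays (4.29-fold, mean 2.10 ± 0.22). *Ets21C*, a stress-induced transcription factor gene, was measured on arrays 1 and 3 only, at 1.49 and 1.62 (mean 1.55 ± 0.08). *puc*, the phosphatase gene that JNK signalling induces, had 1.21, 0.95, 0.40 and 0.87 (mean 0.86 ± 0.11, adjusted p = 0.0011). *Gadd45* (1.06 ± 0.14), the filamin gene *cher* (1.02 ± 0.11) and *egr* (0.79 ± 0.14), which encodes the fly tumour necrosis factor, were the other rises, and *wgn*, a receptor gene for that ligand, fell (−1.004 ± 0.12). *Ilp8*, the gene of the hormone by which damaged discs delay pupariation, was at 0.20 ± 0.16 (adjusted p = 0.38), and the kinase genes *bsk* (−0.21 ± 0.08) and *hep* (0.11 ± 0.08), *kay* (0.04 ± 0.09) and *Stat92E* (−0.42 ± 0.07) were not called.

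*upd1* was higher in ash2-I1 than in ash2-112411 (by 1.96 ± 0.26, adjusted p = 0.0039) and ash1-22 (by 2.40 ± 0.26, adjusted p = 0.0016). *puc* was at 0.86 in ash2-I1 and −0.24 and −0.30 in ash2-112411 and ash1-22, and both differences passed (1.10 and 1.15). *Ets21C*, *Gadd45*, *cher* and *egr* passed in both contrasts as well, and *chinmo*, not tested in ash1-22, was higher than in ash2-112411 by 2.11. In all, 7 of 16 JNK genes were higher in ash2-I1 than in ash2-112411 and 1 lower, against 7.9% and 6.2% of all genes. Compared with ash1-22, 5 of 13 were higher and 1 lower, against 6.12% and 6.24% of all genes. Without extraction 1 the number higher than in ash1-22 was 3. No cell death gene was called (9 tested, between −0.44 and 0.45), and *skl*, an inducer of cell death, was at 0.45 ± 0.08. The death inducer *rpr* was not analysed here. Of the amino acid and mitochondrial stress response list *Gadd45* rose and 2 of 11 genes fell, against 5.43% and 6.66% of all genes. The falls were *CG6287* (−1.45 ± 0.12) and the TOR inhibitor gene *scyl* (−0.83 ± 0.08), and without extraction 2 there were 3 rises.

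**Figure D3:**
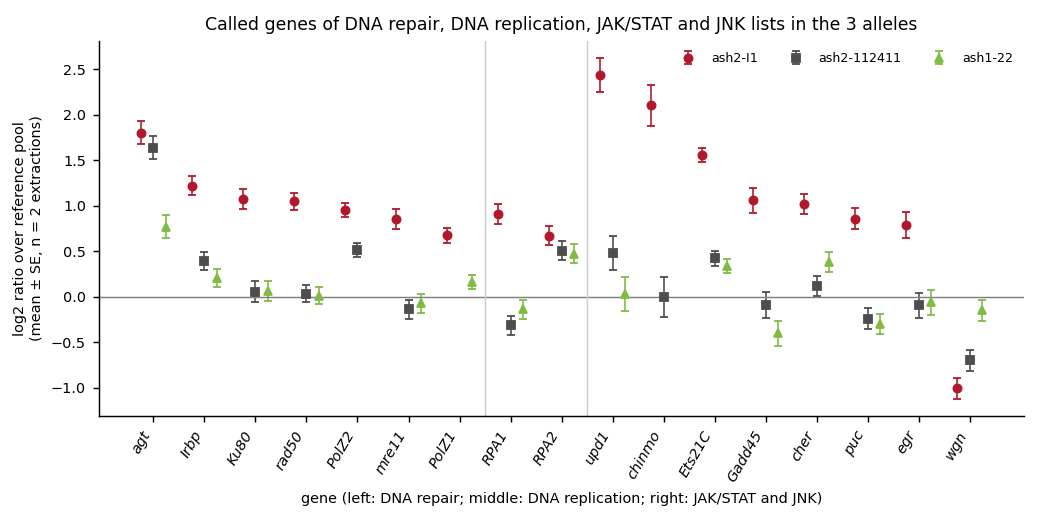
Log2 ratios over the reference pool (y axis, mean of 2 extractions ± moderated SE of limma) of the called genes of the DNA repair, DNA replication and JAK/STAT and JNK lists (x axis, left to right) in ash2-I1 (circles), in ash2-112411 (squares) and for ash1-22 (triangles). *Ku80* and *rad50* were at 1.07 and 1.05 in ash2-I1 and within 0.1 of 0 in the other alleles, whereas *agt* was at 1.80 in ash2-I1, against 1.64 in ash2-112411 and 0.77 for ash1-22.

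Glutathione S-transferases, which conjugate toxic compounds, held a run of neighbours that were all called higher. Of 25 tested genes 10 rose and 3 fell, against 5.43% and 6.66% of all genes. On 2R, *GstE1*, *GstE3*, *GstE5*, *GstE6*, *GstE7* and *GstE8* were consecutive among tested genes and all 6 were called higher, the longest run of neighbouring tested genes called the same way. Among the 10 annotated genes of the stretch, 8 had a probe, and *GstE2* and *GstE4* had too few values to be tested. *GstE6* had log2 ratios of 3.24, 3.50, 3.12 and 2.55 on arrays 1 to 4. *GstE7* (2.69 ± 0.17) had 2.15, 2.83 and 2.88 on arrays 1 to 3. *GstE3* (2.00 ± 0.09), *GstE5* (1.79 ± 0.07), *GstE1* (1.56 ± 0.23) and *GstE8* (0.63 ± 0.10) followed. On 3R, *GstD3* (1.19 ± 0.07), *GstD5* (0.88 ± 0.11) and *GstD6* (1.01 ± 0.15) formed a run of 3. *GstS1* (−0.87 ± 0.08), *GstE12* (−0.71 ± 0.09) and *GstO3* (−0.59 ± 0.12) fell, and the last 2 lost their calls without extraction 1. *GstE3*, *GstE6* and *GstE7* were higher in ash2-I1 than in both other alleles (smaller difference 1.35, 0.93 and 1.51), and *GstE1* in neither (differences of 0.58 and 0.11). Genes of such families resemble each other, and cross-hybridization between their probes was not tested.

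Other detoxification and defence genes split, where 5.43% of all genes were higher and 6.66% lower. Of 16 cytochrome P450 genes 3 rose, with *Cyp12b2* at 1.29 ± 0.22, and *Cyp310a1* fell (−1.60 ± 0.15). The rises of *Cyp311a1* (0.68) and *Cyp9f2* (0.89) were smaller in extraction 2, at 0.46 and 0.31, which is under 1.5-fold. Of 7 UDP-glycosyltransferase genes *Ugt302K1* and *Ugt302C1* (1.14 ± 0.08) rose and *Ugt36D1* (−1.70 ± 0.08) fell. A run of 4 tested genes on 3R, *CG13659* (0.66 ± 0.10), *CG10559* (1.77 ± 0.14), *CHKov1* (0.67 ± 0.11) and *CHKov2* (1.43 ± 0.17), belongs with *JhI-26* to a family of ecdysteroid kinase-like genes. The stretch holds 12 annotated genes, all with a probe, and the other 8 had too few values to be tested. Of that family, a list added after these values had been seen, 6 of 15 rose and 1 fell, and 14 lay above 0. *CHKov1* and *CG13659* were not called without extraction 1. Of the antioxidant list *Gclc*, which makes the glutathione precursor, rose (0.84 ± 0.11) and *Sod3*, an extracellular superoxide dismutase gene, fell (−1.498 ± 0.08) among 16, with 2 falls without extraction 1 and 2 rises without extraction 2. Of iron, copper and zinc genes 4 of 16 rose and 0 fell, namely *Tsf1*, *Tsf3* (1.37 ± 0.14), the iron-sulfur scaffold gene *IscU* (1.95 ± 0.12) and the metallothionein gene *MtnA* (0.61 ± 0.17). *IscU* had 1.91, 2.52, 1.96 and 1.42 on arrays 1 to 4.

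Of 24 immune recognition and signalling genes 5 fell, and 1, *Tep4* (1.11 ± 0.15), rose, against 6.66% and 5.43% of all genes. *GNBP3* had log2 ratios of −2.20, −2.02, −1.42 and −1.76 on arrays 1 to 4. The receptor gene *Tl* had −0.88, −1.87, −1.58 and −1.21 (mean −1.39 ± 0.09), and *Spn27A*, a serpin gene of the same pathway, averaged −1.24 ± 0.09, with *18w* at −0.92 and the kinase gene *pll* at −0.85. *GNBP3* and *Spn27A* were each lower in ash2-I1 than in ash1-22 (by −1.85 and −1.15) but not than in ash2-112411 (differences of −0.27 and −0.22). Without extraction 2 there were 4 rises in the list. The 3 antimicrobial peptide genes and the 1 Turandot gene tested lay between 0.02 and 0.55, and 1 peptide gene was called without extraction 2.

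Surface and matrix genes moved in both directions, where 5.43% of all genes were higher and 6.66% lower. Of 43 cuticle protein genes 5 rose, among them *Cpr50Cb* (1.68 ± 0.16) and *Lcp65Ag1* (1.33 ± 0.25), and 4 fell, led by *Cpr65Ec*. Of 21 chitin genes 4 rose and 6 fell. The chitinase-like growth factor gene *Idgf6* had 1.83, 2.07, 1.67 and 1.60 on arrays 1 to 4 (mean 1.80 ± 0.13), whereas *obst-A*, a chitin-binding gene, had −2.003, −1.93, −1.37 and −1.39 (mean −1.67 ± 0.14), and *obst-B* (−1.12 ± 0.10) and *obst-E* (−0.87 ± 0.07) fell with it. Of axon guidance and neural adhesion genes 6 of 16 fell and none rose, among them *trn* (−1.37 ± 0.07), *fra*, the netrin receptor gene (−1.34 ± 0.09), and *hbs* (−1.02 ± 0.07). *fra* had −1.15, −1.33, −1.37 and −1.52 on arrays 1 to 4. Among apical matrix ZP domain genes 2 of 5 fell, with *neo* at −2.55 ± 0.09, among septate junction genes 2 of 21, with *nrv1*, a sodium pump subunit gene, at −1.33 ± 0.07, among adherens junction and polarity genes 2 of 14 (*p120ctn* and *ed*), and among basement membrane and integrin genes 2 of 20, with *Mp* at −1.69 ± 0.08. The actin list had 1 rise (*dia*) and 1 fall (*Abi*, −1.27 ± 0.08) among 24, and the tubulin and kinesin list 2 falls among 15. Without extraction 1 the actin list had 0 rises and 3 falls and the adherens junction list 4 falls, and without extraction 2 the septate junction list had 5 falls, the actin list 2, the tubulin list 1 with 1 rise, the ZP domain list 1 rise and the basement membrane list 2 rises.

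**Figure D4:**
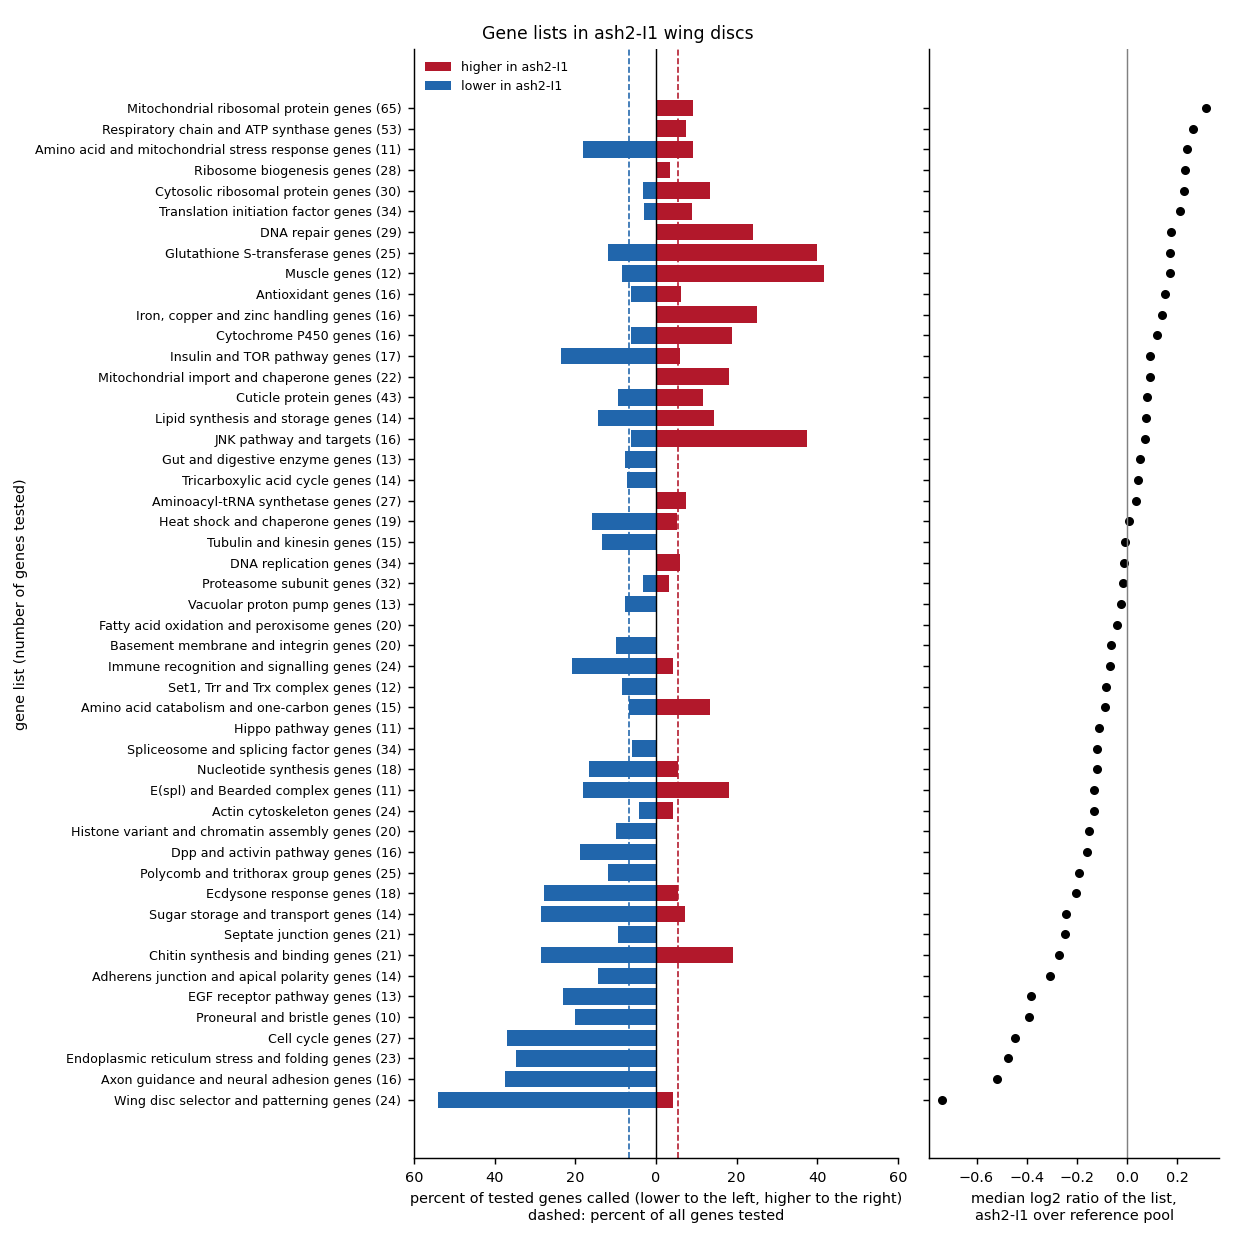
Gene lists with at least 10 genes tested in ash2-I1 (the 3 lists added after the values had been seen are left out), ordered by their median log2 ratio over the reference pool (right panel). In the left panel bars give the percent of tested genes called lower (leftward) and higher (rightward), with dashed lines at the 6.66% lower and 5.43% higher of all genes. Wing disc patterning genes had the lowest median (−0.74), mitochondrial ribosomal protein genes the highest (0.32).

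Genes of sugar use and of serine synthesis were called lower more often than higher. Most genes of the mitochondrial ribosome and of the respiratory chain and ATP synthase lay slightly above 0. Of 7 glycolysis genes 3 fell, against 6.66% of all genes, and all 7 lay below 0 (median −0.58). *Tpi*, the triose phosphate isomerase gene, had log2 ratios of −1.38, −1.54, −0.88 and −1.02 on arrays 1 to 4 (mean −1.21 ± 0.12), *Pgi* averaged −0.88 ± 0.08 and *Eno* −0.72 ± 0.11, and *Eno* lost its call without extraction 1. In the contrasts 3 of 7 were lower in ash2-I1 than in ash1-22 (*Tpi*, *Pgi* and *Pgk*), and 2 of 7 than in ash2-112411 (*Tpi* and *Pgk*), of which 0 were called without extraction 1. The shares of all genes lower in these contrasts were 6.24% and 6.2%. Of the genes of glycogen turnover and sugar transport 4 of 14 fell, namely *Glyp* (−1.01 ± 0.07), *Glys* (−0.94 ± 0.10) and *AGBE* (−0.93 ± 0.08), which break down, build and branch glycogen, and the transporter gene *sut1* (−0.79), and 1 rose (*Mal-B2*, not called without extraction 1). Of 4 genes listed for serine and glycine synthesis 3 were tested, and 2 fell. *CG6287*, the predicted phosphoglycerate dehydrogenase gene, had −1.61, −1.79, −1.30 and −1.11 on arrays 1 to 4, and *CG11899* fell with it. *Shmt*, which turns serine into glycine, was at −0.31 ± 0.11. These serine genes were grouped after their values had been seen.

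Of 65 mitochondrial ribosomal protein genes 60 lay above 0 (median 0.32), and 6 rose and 0 fell, with *mRpS21* at 0.87 ± 0.13. Of 53 genes of the respiratory chain and ATP synthase 48 lay above 0 (median 0.26), and 4 rose and 0 fell, a number that was 7 without extraction 1, when 1 also fell. The shares called higher were 9.23% and 7.55%, against 5.43% of all genes (6.66% of all genes were lower), and without extraction 1 the ribosomal number was 9. The median of all genes tested was 0.02. In ash2-112411, 16 of 65 ribosomal and 16 of 52 respiratory genes were called higher. Compared with that allele, 8 and 5 were lower in ash2-I1 and 1 of each list higher, against 6.2% and 7.9% of all genes. On a common scale 2 and 1 were lower. Relative to ash1-22, 9 of 65 and 5 of 50 were higher and 0 lower, against 6.12% and 6.24% of all genes. Of 22 mitochondrial import and chaperone genes (median 0.09) 4 rose, among them *Tom7* (0.89 ± 0.07) and the protease gene *Lon* (0.75 ± 0.09). The single call among 14 genes of the citric acid cycle was *Idh*, which makes NADPH, at −1.58 ± 0.13, and without extraction 2 there were 2. No gene of fatty acid oxidation and peroxisomes was called (20 tested), although 2 were lower without extraction 2. Lipid genes split, with *Npc2b* (1.25 ± 0.11) and *Desat1* (0.59 ± 0.09) higher and the lipid droplet gene *Lsd-2* (−1.47 ± 0.09) and the triglyceride synthesis gene *mdy* (−1.27 ± 0.09) lower among 14, and without extraction 1 there was 1 rise. Nucleotide synthesis had 1 rise (*Adss*) and 3 falls (*dUTPase*, *Adsl*, *Ts*) among 18, amino acid catabolism 2 rises (*Gdh*, *Gs2*) and 1 fall (*Pepck1*, −1.17 ± 0.09) among 15, and the vacuolar proton pump 1 fall among 13. Without extraction 1 the rises in the nucleotide and amino acid lists numbered 0 and 1, the falls in the amino acid list 2 and in the proton pump list 0, and without extraction 2 the nucleotide list had 2 rises and the amino acid list 2 falls.

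Growth and hormone genes were lower more often than higher, where 6.66% of all genes were lower and 5.43% higher. Of 27 cell cycle genes 10 fell and 0 rose (median −0.44), led by *Cdk4*, with log2 ratios of −1.03, −1.77 and −1.06 on arrays 1, 2 and 4 (mean −1.23 ± 0.12). *Rbf2* (−0.93 ± 0.11), the cyclin gene *CycB3* (−0.86 ± 0.09) and the securin gene *pim* (−0.82 ± 0.07) followed. Compared with the other alleles, 7 of 27 were lower in ash2-I1 than in ash1-22 (4 without extraction 1), against 6.24% of all genes. Relative to ash2-112411 2 were lower and 1 higher (3 higher without extraction 1), against 6.2% and 7.9% of all genes. Of 18 ecdysone response genes 5 fell and 1 rose. *ImpE2*, an ecdysone-induced gene of disc eversion, was at −5.43 and −2.77 on arrays 1 and 4, the only arrays that measured it, both with the mutant in Cy3 (mean −4.10 ± 0.50). *br*, the early ecdysone response gene, had −1.47, −1.56, −1.21 and −1.53 (mean −1.44 ± 0.09), and *usp*, which encodes the partner of the ecdysone receptor, averaged −0.85 ± 0.07, with *Cth* at −1.17 ± 0.12 and *Eip63E* at −0.59 ± 0.07. *ftz-f1* rose by 0.63 ± 0.10, a call lost without extraction 1, and without extraction 2 there were 2 rises. *br* was lower in ash2-I1 than in ash2-112411 (by −0.62) and in ash1-22 (by −1.17). Of 5 juvenile hormone genes *JhI-26* rose and *Kr-h1*, which mediates the hormone's repression of metamorphosis, fell (−0.97 ± 0.19), with 0.21 on array 1 (mutant in Cy3) and −1.23 and −1.44 on arrays 2 and 3 (Cy5), and without extraction 2, when *Kr-h1* was not called, 2 fell. Of 17 insulin and TOR genes 4 fell, with *InR*, the insulin receptor gene, at −0.97 ± 0.09 and the amino acid transporter gene *mnd* at −1.01 ± 0.11, and 1 rose (*melt*), which was 0 without extraction 1 and 3 without extraction 2.

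Among genes of protein synthesis and quality control, folding and stress genes of the endoplasmic reticulum fell most often. For comparison, 6.66% of all genes were lower and 5.43% higher. Of 23 folding and stress genes of this compartment 8 fell and 0 rose (median −0.47), with *Sec61gamma*, of the translocation channel, at −0.996 ± 0.07, *ERp60* at −0.85 ± 0.09, *Pdi* at −0.76, *Atf6* at −0.74 and the chaperone gene *Gp93* at −0.72 after *wbl*. Of these 23 genes 4 were lower in ash2-I1 than in ash1-22 and 1, *wbl*, than in ash2-112411 (2 without extraction 2), against 6.24% and 6.2% of all genes. Of 32 secretory traffic genes, a list added after the values had been seen, 2 fell, *alphaSnap* and *loj*, and without extraction 2 there was also 1 rise. Of 19 heat shock and chaperone genes 3 fell, *Hsp27*, *Hsp26* (−1.73 ± 0.14) and *DnaJ-1* (−0.83 ± 0.10), and *CCT4* (0.60 ± 0.07) was called higher. *CCT4* had −0.12, 1.36, 0.88 and 0.30 on arrays 1 to 4, and it was not called with a dye term (adjusted p = 0.13), with the arrays as samples (adjusted p = 0.13), on a common scale (0.54) or with the mutant in Cy3 alone (0.09, adjusted p = 0.61). Of 30 cytosolic ribosomal protein genes 4 rose and 1 fell. *RpS5b*, a paralogue known from the germ line, was at 3.71 and 3.59 on arrays 1 and 3, its only values (mean 3.65 ± 0.11), whereas *RpS12*, measured on all arrays, averaged −1.46 ± 0.19. Ribosome biogenesis genes had 1 rise among 28, translation initiation factors 3 rises, led by *eIF6* (0.96 ± 0.09), and 1 fall among 34, tRNA synthetases 2 rises among 27, the proteasome 1 rise (*REG*, 0.85 ± 0.06) and 1 fall among 32, and splicing factors 2 falls among 34. Without extraction 1 there were 1 tRNA synthetase rise, 1 splicing factor fall and 0 proteasome falls, and without extraction 2 there were 5 rises and 0 falls among initiation factors.

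Of 12 genes of the Set1, Trr and Trx complexes *ash2* was the single call, where 5.43% of all genes were higher and 6.66% lower. Its complex partners *Rbbp5* (0.27 ± 0.07), *wds* (−0.19 ± 0.11), *Hcf* (−0.38 ± 0.09) and *trx* (−0.42 ± 0.09) were not called. Of 25 Polycomb and trithorax group genes 3 fell, the gene of the p55 subunit of chromatin assembly factor 1 (−1.23 ± 0.08), *Trl* (−1.09 ± 0.08) and *kis* (−0.66 ± 0.11), and 21 lay below 0. Without extraction 1 the falls numbered 7. Histone variant and assembly genes had 2 falls among 20, *His4r* and *HP1b*. Array 1 gave 0.32 and array 2 gave −1.49 for *HP1b*, so its mean of −0.60 joined arrays of opposite dye that disagreed in sign. Of 9 dosage compensation and sex determination genes *fru* was higher (0.79 ± 0.12) and not called without extraction 1, when 1 gene was lower, as 1 was without extraction 2.

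Markers of tissues other than the disc epithelium were measured beside these results, where 5.43% of all genes were higher and 6.66% lower. Of 12 muscle genes 5 rose and 1 fell. *Mlc2*, a myosin light chain gene, had 2.24, 2.91, 1.50 and 1.96 on arrays 1 to 4 (mean 2.15 ± 0.20). *Mp20* (2.04 ± 0.26), *Mlc1* (1.82 ± 0.16), *Mlp60A* (1.53 ± 0.25) and *TpnC41C* (0.68 ± 0.09) rose with it, whereas *Act79B*, *Prm*, *sls* and *up* lay between −0.30 and 0.22. Of the 4 adult muscle precursor genes none was called, and all lay below 0. The fat body list held 2 rises among 6, *Tsf1* and *Gdh* (0.77 ± 0.13, not called without extraction 1), whereas the larval serum protein gene *Lsp2* was at −1.76 ± 0.87 and *Fbp1* at −0.20 ± 0.45. None was called among 9 hemocyte, 4 salivary gland and 4 testis genes. Tracheal genes had 1 rise (*Gasp*) and 1 fall (*obst-A*) among 9, neuronal genes 1 rise (*unc-13*, 1.99 ± 0.20) and 2 falls (*elav*, −0.996 ± 0.13, and *para*, −0.96 ± 0.07) among 9 (*elav* had 0.19 on array 1, with the mutant in Cy3, and −1.59 and −1.29 on arrays 2 and 3, with it in Cy5, and was not called with the arrays as samples), gut genes 1 fall (*deltaTry*) among 13, and genes of leg, haltere and other discs 1 rise (*toy*) and 2 falls (*ap*, *eya*) among 9. Without extraction 1 there were 2 tracheal falls, and in the list of other discs 0 rises and 1 fall, and without extraction 2 there was 1 hemocyte rise. The part of muscle or other tissue in the results was not tested.

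Tests of the difference between alleles show where ash2-I1 stood apart. Against ash2-112411, 501 genes were higher in ash2-I1 (7.9% of 6339) and 393 were lower (6.2%), and against ash1-22, 349 were higher (6.12% of 5707) and 356 were lower (6.24%). The alleles share the reference pool, which cancels in these differences. Each set of 4 arrays had been scaled on its own, and on a common scale the numbers against ash2-112411 were 282 and 254, and against ash1-22 402 and 377. Higher than in both other alleles were 175 genes and lower than in both were 144, of 5422 tested against both (3.23% and 2.66%).

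The largest such rises included signalling and metabolic genes. *slf*, which anchors the cuticle, was measured on arrays 1 to 3 at 2.10, 3.22 and 2.07, with a mean of 2.37 ± 0.15 in ash2-I1, against 0.44 in both ash2-112411 and ash1-22. *Arc1*, which encodes a capsid-like RNA carrier, had 2.19, 3.75, 2.52 and 0.39 (mean 2.21 ± 0.31), against 0.52 and 0.30. *wun2*, a lipid phosphatase gene, was at 1.73 ± 0.18, against 0.07 and −0.27. *Mocs1*, of molybdenum cofactor synthesis, the cofactor of aldehyde oxidases, had 1.30, 1.81 and 1.45 on arrays 1 to 3 (mean 1.50 ± 0.09), against −0.29 and −0.09. *upd1*, *JhI-26*, *Nt5b* and *CG31633* (1.60 ± 0.08) completed the 8. Across the 8 the smaller of the 2 differences ran from 1.59 (*Mocs1*) to 1.96 (*upd1*). The adjusted p lay under 0.05 in both contrasts, the highest being that of *Arc1* against ash2-112411 (0.026).

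Among the largest falls relative to both alleles, *CG4382*, a predicted carboxylesterase gene, was at −3.41, −2.02 and −2.44 on arrays 1, 3 and 4 (mean −2.82 ± 0.23), against 0.20 in ash2-112411 and 0.28 in ash1-22. *Cpr65Ec* was at −3.07, against −0.21 and −0.69. *Obp99a*, an odorant-binding protein gene, was at −2.78 ± 0.23, against 0.03 and −1.19. *Doc2* was at −1.72, against −0.23 and −0.22, so that the difference was −1.49 ± 0.24 (adjusted p = 0.0065) and −1.51 ± 0.24 (adjusted p = 0.0057). *CG4914*, *Ir75d* (−1.64 ± 0.10), *wbl* and *Hsp27* completed the 8, and *Hsp27* was also low in ash2-112411 (−1.01) and ash1-22 (−0.85). Of the wing patterning list 5 of 23 genes were lower in ash2-I1 than in ash2-112411 and 9 of 24 than in ash1-22, against 6.2% and 6.24% of all genes. The first number was 1 without extraction 1.

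**Figure D5:**
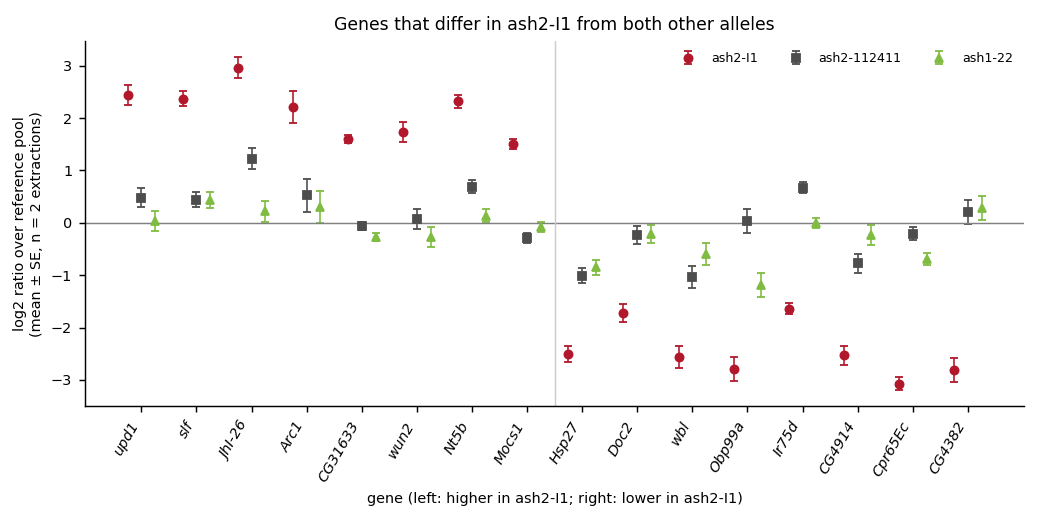
Log2 ratios over the reference pool (y axis, mean of 2 extractions ± moderated SE of limma) of the 8 genes most above and the 8 most below both other alleles in ash2-I1 (x axis), shown for ash2-I1 (circles), in ash2-112411 (squares) and for ash1-22 (triangles). *upd1* was at 2.44 in ash2-I1 and 0.48 and 0.03 in ash2-112411 and ash1-22, and *CG4382* at −2.82, 0.20 and 0.28.

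Genes called in ash2-I1 and called the other way in another allele numbered 11. *Ugt302K1* was at 2.64 in ash2-I1, against 1.34 in ash2-112411 and −0.68 for ash1-22, with a difference of 3.32 ± 0.22 from ash1-22 (adjusted p = 3.81e-04). *toy*, a Pax gene of eye development, was at 1.31 ± 0.29 in ash2-I1, against 1.26 in ash2-112411 and −1.58 for ash1-22 (difference from ash1-22 2.89 ± 0.40, adjusted p = 0.0037), and it lost its call in ash2-I1 without extraction 1. *Spn47C* was at 1.09 in ash2-I1 and −0.62 in ash1-22, and *CG30423* at −1.03 in ash2-I1 and 0.80 in ash1-22. *CG30423* had values on arrays 2 and 3 only, both with the mutant in Cy5, and was not called in ash2-I1 with a dye term (−0.55, adjusted p = 0.16) or with the arrays as samples (adjusted p = 0.065), so that its opposite call rests on 1 dye orientation. Between the *ash2* alleles, *Ir75d* was at −1.64 in ash2-I1 and 0.67 in ash2-112411, and *InR* was at −0.97 in ash2-I1, with −0.89, −0.77, −1.25 and −0.95 on arrays 1 to 4, and at 0.70 in ash2-112411 (difference −1.67 ± 0.12, adjusted p = 0.0013).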

How the data were processed

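By the study's methods, the authors quantified the dual-channel oligonucleotide arrays with GenePix, removed spots of low quality, corrected background with normexp, normalized with OLIN and scaled each set of 4 arrays by its median absolute deviation. The table deposited by the authors holds log2 ratios (Cy5 over Cy3). Here the sign was turned on arrays that had ash2-I1 or another mutant in Cy3. The annotation gave 1 symbol to 13164 probes, several to 101 and none to 3151 spots. Symbols were updated through Entrez IDs (12533 probes) or accessions (120) to Release 6 names, and 511 were kept. A gene was represented by the probe measured on the most ash2-I1 arrays. Both arrays of an extraction were averaged. Where 1 lacked a value the other stood alone, with its dye bias. An allele was tested where both extractions had a value. The 6 extractions were fitted with limma 3.58.1 in R 4.3.3, each allele against 0 and ash2-I1 against each other allele, with Benjamini-Hochberg adjustment over all annotated probes tested. The script was tested on simulated data. Members and lists were chosen with earlier results of these data known.

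Named were *ash2*, the 12 largest rises and falls on all 4 arrays, up to 3 called genes a direction in each list, the 8 genes furthest above and below both other alleles, members of runs of at least 4 called neighbours, and up to 6 genes called the other way in another allele. Other genes, and the comparisons that did not pass, were named after their values were seen. The number of arrays limits the precision. Alternatives were the 4 arrays as samples, extraction as a random block, ash2-I1 alone, 4-array probes only, a dye term, array medians at 0, a common scale, a robust prior, 2.0-fold, each extraction left out and, added later, each dye orientation alone.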

Additional observations from a re-analysis of the deposited data

Results flagged for a closer look

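One value on 1 array stood apart: *stan*, a planar polarity gene, was at −0.41 on array 4 of ash2-I1 and between −1.09 and −0.98 on the others, the single case among 136 named genes with 4 arrays whose gap passed the limit of Dixon's test, as about 1 in 20 groups do by chance.

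The other results of note are differences between ash2-I1 and the other alleles, each tested as a contrast in limma. The value given is the smaller of the 2 differences in log2 ratio. In ash2-I1, *upd1* was higher by 1.96, *slf* by 1.93, *JhI-26* by 1.73, *Arc1* by 1.69, *CG31633* by 1.66, *wun2* by 1.66, *Nt5b* by 1.63 and *Mocs1* by 1.59. The differences were −3.02 for *CG4382*, −2.38 for *Cpr65Ec*, −1.76 for *CG4914*, −1.64 for *Ir75d*, −1.60 for *Obp99a*, −1.51 for *wbl*, and −1.49 for *Doc2* and *Hsp27*. Of genes called in opposite directions, the difference was 3.32 for *Ugt302K1*, 2.89 for *toy*, 1.71 for *Spn47C* and −1.84 for *CG30423* against ash1-22, and −1.67 for *InR* against ash2-112411. The ash2-I1 value of *CG30423* comes from arrays 2 and 3 only, with the mutant in Cy5, and lost its call with a dye term (−0.55, adjusted p = 0.16) and with the arrays as samples (adjusted p = 0.065).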

How the results depend on the processing

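The 374 higher and 459 lower genes of ash2-I1 became 149 and 143 past 2.0-fold, and 230 were higher when only probes measured on all 4 arrays were kept, a set with fewer genes. Without either extraction the range was 329 to 556 higher and 486 to 562 lower. Of the 374 and 459, 284 and 378 were also called without extraction 1 and 354 and 400 without extraction 2. Against ash2-112411 a common scale gave 282 higher and 254 lower, and leaving out an extraction 377 (without extraction 1) to 776 higher (without extraction 2) and 420 to 498 lower, and against ash1-22 the range was 267 to 493 higher and 341 to 460 lower. With an extraction left out, the p-values took their spread from the other alleles only. The cause of these ranges was not tested. In the dye orientations alone, added after seeing the data, 483 were higher and 524 lower with the mutant in Cy5, and 279 and 390 with the mutant in Cy3. Of 154 named genes with a value for the mutant in Cy3 alone, *HP1b* changed sign, to 0.11 (adjusted p = 0.62). *elav*, *Kr-h1*, *Cyp9f2* and *Lcp65Af*, which could not be fitted there, had arrays of opposite dye that disagreed in sign, and *CG30423*, *Mal-B2*, *Mp20*, *deltaTry* and *LeuRS-m* had values with the mutant in Cy5 only and *ImpE2* and *RpS19b* in Cy3 only. Of the 195 named genes 134 were called under every one of 12 alternatives that measured them, and 32 were not called without extraction 1 and 13 without extraction 2. With array medians at 0 the split was 359 and 486. No paired analysis was possible because each allele was tested against 0 over 1 pool that was on every array and has no replicate numbers.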
